A study of Mus musculus with 9 samples.

Results

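The drug-metabolising cytochrome P450 genes of the Cyp2a and Cyp2b subfamilies were followed in mouse liver together with Nr1i3, the gene of the constitutive androstane receptor (CAR). The 8 members, of 32285 gene identifiers in the deposited table, were chosen by name: Cyp2a4, Cyp2a5, Cyp2a12, Cyp2a22, Cyp2b9, Cyp2b10, Cyp2b13 and Nr1i3. The study built Tet-OFF mice and asked how far the drugs that control them, doxycycline (Dox) and tetracycline (Tc), disturb liver transcription by themselves. Bulk RNA-seq was done on 9 liver libraries, 3 each for Control, Dox and Tc. In these mice a piggyBac CAG-CreERT2 transgene (a tamoxifen-activated Cre under a ubiquitous promoter) removes a stop cassette before tTA at Rosa26, and tTA, which either drug switches off, then drives a tetO-Venus-ires-mCherry reporter. By the labels all 3 groups had received tamoxifen, the Control group nothing else, and the other groups tamoxifen with Dox or with Tc. Dox (as hyclate) and Tc (as hydrochloride) were each given at 2 mg/mL for 7 days in drinking water that held 10 mg/mL sucrose, to mice 4 weeks old. The study describes the treated mice as male, while the labels give neither the sex, nor the age of the controls separately, nor whether the controls drank sucrose. Between a drug group and Control, the drug, the switched-off tTA with its reporter, and possibly sucrose differ together. Their parts in any difference below cannot be told apart. The study describes 3 independent samples per group and calls them biological replicates. The labels do not tie a library to an animal, so the p-values below measure the spread between these libraries.

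CAR is a nuclear receptor of the hepatocyte that waits in the cytoplasm with chaperones, enters the nucleus when drugs such as phenobarbital are present, and binds DNA with the retinoid X receptor. Cyp2b10 is its textbook target gene. The enzymes of both subfamilies sit in the endoplasmic reticulum, take electrons from P450 oxidoreductase (Por) and hydroxylate drugs and steroids. Cyp2a5 is the mouse coumarin hydroxylase, known to respond to CAR, to fasting and to hepatocellular stress. Cyp2a4 is a steroid hydroxylase, Cyp2a12 rehydroxylates secondary bile acids, and Cyp2a4, Cyp2b9 and Cyp2b13 are known as female-predominant genes of the adult mouse liver under the control of the growth hormone pattern. Dox and Tc share the four-ring tetracycline skeleton. Dox lacks the hydroxyl that Tc carries on the ring carbon with the methyl group, and has one on the neighbouring ring carbon instead.

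The P450 members lie in 1 cluster on chromosome 7 (GRCm38, GENCODE M21), all protein-coding with 9 exons. In order along the chromosome they are Cyp2b10 (chr7:25897620-25926624), Cyp2b13 (chr7:26061497-26096197), Cyp2b9 (chr7:26173411-26210661), Cyp2a4 (chr7:26307169-26315088), Cyp2a5 (chr7:26835305-26843548), Cyp2a22 (chr7:26931631-26939384) and Cyp2a12 (chr7:27029081-27037375). Of these, only Cyp2a22 lies on the minus strand. Nr1i3 lies at chr1:171213970-171220701 on the plus strand, where Tomm40l overlaps it on the opposite strand. Gm42375 overlaps Cyp2a4 and Cyp2a21-ps overlaps Cyp2a22 on the opposite strand, and Rnf170-ps overlaps Cyp2b13 on the same strand. Cyp2a4 and Cyp2a5 differed at 23 bases of their coding sequence (98.5% identity), Cyp2a12 and Cyp2a22 at 45 (97.0%), and Cyp2b9 and Cyp2b13 at 108 (92.7%). The authors counted uniquely mapped reads of 86 bases. Windows of that length that occur in no other annotated transcript made up 83.4% of the Cyp2a4 transcript and 79.9% of that of Cyp2a5, against 96.6% for Cyp2b9, 99.1% for Cyp2b10, 87.7% for Cyp2b13, 89.8% for Cyp2a12, 90.5% for Cyp2a22 and all of Nr1i3. Reads that fell on the shared stretches of a close pair are therefore missing from both genes. Cyp2b13 shared most windows not with Cyp2b9 but with Gm45225 (179), whereas Cyp2b9 shared 60 with Cyp2b13.

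The promoters of Cyp2b9 and Cyp2b13 and of Cyp2a4 and Cyp2a5 are shown, with that of Cyp2b10, because those of each pair are nearly the same in sequence while the mRNAs, described below, were not alike in level. All 8 members matched a RefSeq promoter (GRCm38.p6). In the 250 bases before the start, Cyp2a4 and Cyp2a5 differed at 4 of 249 aligned bases and Cyp2b9 and Cyp2b13 at 2 of 250, while Cyp2b10 shared 71.7% of 254 aligned positions with either of the latter. The promoters of Cyp2a12 and Cyp2a22, not shown, differed at 26 of 239 (89.1% identity). The stretches from 200 to 41 bases before the RefSeq start are given 5′ to 3′, with capitals on TTGCATAA, 8 bases related to the element bound by C/EBP factors, or on the 8 bases aligned to it.
Cyp2b10, chr7:25897458-25897617, + strand: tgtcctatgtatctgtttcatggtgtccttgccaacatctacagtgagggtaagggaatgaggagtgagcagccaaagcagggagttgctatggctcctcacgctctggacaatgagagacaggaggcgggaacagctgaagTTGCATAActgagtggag
Cyp2b9, chr7:26173209-26173368, + strand: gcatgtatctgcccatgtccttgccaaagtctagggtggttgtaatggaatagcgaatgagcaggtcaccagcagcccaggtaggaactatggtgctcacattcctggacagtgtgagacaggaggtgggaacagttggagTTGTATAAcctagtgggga
Cyp2b13, chr7:26061295-26061454, + strand: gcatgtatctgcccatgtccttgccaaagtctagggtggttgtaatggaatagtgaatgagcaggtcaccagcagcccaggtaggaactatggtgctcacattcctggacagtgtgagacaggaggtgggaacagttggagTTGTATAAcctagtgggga
Cyp2a4, chr7:26306992-26307151, + strand: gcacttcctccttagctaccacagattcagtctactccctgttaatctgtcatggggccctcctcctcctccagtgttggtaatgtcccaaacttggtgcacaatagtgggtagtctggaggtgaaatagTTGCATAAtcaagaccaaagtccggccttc
Cyp2a5, chr7:26835139-26835298, + strand: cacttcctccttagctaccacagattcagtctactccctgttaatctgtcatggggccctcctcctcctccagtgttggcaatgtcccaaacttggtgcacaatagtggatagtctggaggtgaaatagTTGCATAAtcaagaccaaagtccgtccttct
The 8 bases began 58 bases before the start in Cyp2b10, 70 in Cyp2a4 and 71 in Cyp2a5. At the aligned place, Cyp2b9 and Cyp2b13 carried C4T, counted from 1 at the 5′ end of the 8 bases with the TTGCATAA base first. TTGCATAA was found, on either strand, in 0.743% of 32851 RefSeq promoters, each from 250 bases before to 50 after the start, and in 3 of the 8 members. AGGTCA, the half-site of nuclear receptors, was found in 16.3% of all promoters and in Cyp2a4, Cyp2a5, Cyp2b9 and Cyp2b13. TATAAA occurred in 13.6% and in all 4 Cyp2a genes, and CACGTG, the E-box, in 7.15% and in Nr1i3. TTCNNNGAA, the STAT element, occurred in 8.3% and in no member. These motifs were picked after the sequences had been read, both strands were searched, and no overlap between them was found in the members. A match is a description of letters and not of binding.

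Recovered reads on genes ranged from 7426136 to 12183041 per library. Alb, the albumin gene, was at 255547.5 to 1408836.3 normalized counts (reads divided by a size factor per library), and none of the 7 hepatocyte markers with a row, of 8 sought, was at 0 in all libraries, so the liver label was borne out by its markers. The Y-linked Ddx3y, Eif2s3y, Kdm5d and Uty were present in every library, with 545.9 to 1139.9 normalized counts for Ddx3y, 180.5 to 300.1 for Eif2s3y, 89.9 to 154.3 for Kdm5d and 130.9 to 228.5 for Uty. Xist, the X-inactivation RNA of female cells, was at 2.3 to 10.6 in 7 libraries, at 44.1 in Tc 2 and at 23.6 in Tc 3. None of these 5 genes passed the limma test in any comparison, and DESeq2 called Xist lower in Dox than in Tc (adjusted p = 0.0296). In bulk liver, fewer cells of a type and less RNA per cell cannot be told apart.

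In each group, library 3 nearly equalled a weighted sum of libraries 1 and 2, which decides how the groups of 3 can be read. Over all genes of the table the fitted weights on libraries 1 and 2 were 58.6% and 40.8% in Control, 61.2% and 34.4% in Dox, and 59.7% and 36.9% in Tc. For all 8 members in all 3 groups, 24 of 24 values, library 3 lay between the other two. In Dox 3, Cyp2b10 was at 2572.5 where the weighted sum gave 2579.0. The largest deviation was 0.544 on the log2 scale, for Cyp2b10 in Tc, and 14 of the 24 values were within 0.1. Neither this closeness nor the count of values lying between was measured over all genes. The study describes the 3 samples of each group as independent, and the labels do not say how libraries 3 were made. The fits over 9 libraries treat libraries 3 as independent of the others, so their p-values can be too small, and values without libraries 3 are given beside those with them.

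**Figure D1:**
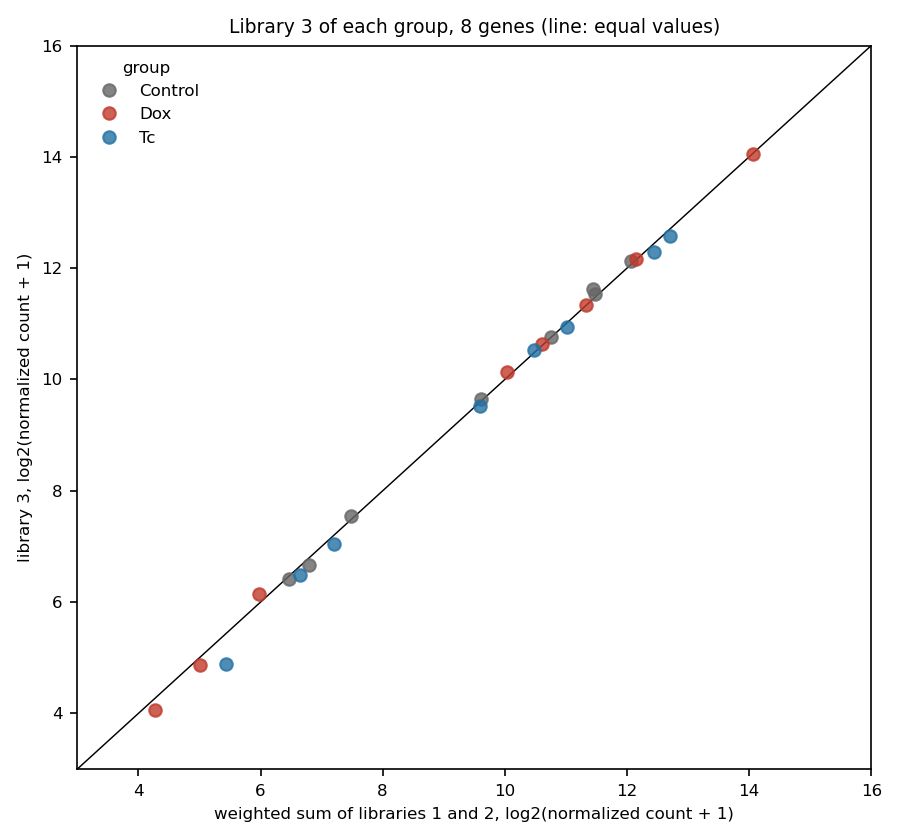
Library 3 of each group against the weighted sum of libraries 1 and 2, both as log2(normalized count + 1), for the 8 members in Control (grey), Dox (red) and Tc (blue). The 24 points lie along the line of equal values, the farthest from it by 0.544.

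With Dox, Cyp2a5 was the member that passed the test, rising 11.1-fold over Control. Differential expression was tested with limma on log2(normalized count + 1), with Benjamini-Hochberg adjustment over 12100 genes and a gene called at a fold change over 2 and an adjusted p under 0.05. In Dox against Control 1 of 8 members was called, beside 5.00% of all genes tested. In Tc against Control 0 of 8 were called (0.165% of all genes), and 0 of 8 in Dox against Tc (0.215%). At an unadjusted limma p under 0.05 with no limit on the fold change, 2 members passed with Dox (Cyp2a5 and Cyp2b9, beside 29.1% of genes), 2 with Tc (Cyp2a5 and Nr1i3, beside 11.7%) and 3 in Dox against Tc (Cyp2a5, Cyp2b10 and Nr1i3, beside 21.7%). DESeq2 on the recovered reads called 4 members with Dox, with Cyp2a5 and Cyp2b10 higher and Cyp2a22 and Cyp2b9 lower (9.40% of genes), 1 with Tc, Cyp2a5 (1.56%), and 3 in Dox against Tc, with Cyp2a5 and Cyp2b10 higher and Cyp2a22 lower in Dox (4.98%). The edgeR test called 1, 0 and 0 members, beside 668, 21 and 0 of 12100 genes. Without libraries 3, limma called 0 members and 0% of genes in each of the 3 comparisons. Before adjustment 2, 0 and 0 members were below 0.05 in that fit, beside 1040, 239 and 454 of 12100 genes. DESeq2 without libraries 3 called Cyp2a5 with Dox (1.20% of genes) and no member with Tc (0.0744%) or in Dox against Tc (0.256%). Both drugs were compared with the same Control libraries.

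The groups of 3 libraries did not overlap for 3 members in Dox against Control (33.3% of all genes), with Cyp2a5 higher and Cyp2a22 and Cyp2b9 lower. They did not overlap for 5 members in Tc against Control (30.7% of all genes), with Cyp2a5, Cyp2a12 and Nr1i3 higher and Cyp2b9 and Cyp2b10 lower. In Dox against Tc the groups were apart for Nr1i3, lower in Dox, and for no other member (24.6% of all genes). With library 3 a near-mixture, a library between the others adds little to such a separation.

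**Figure D2:**
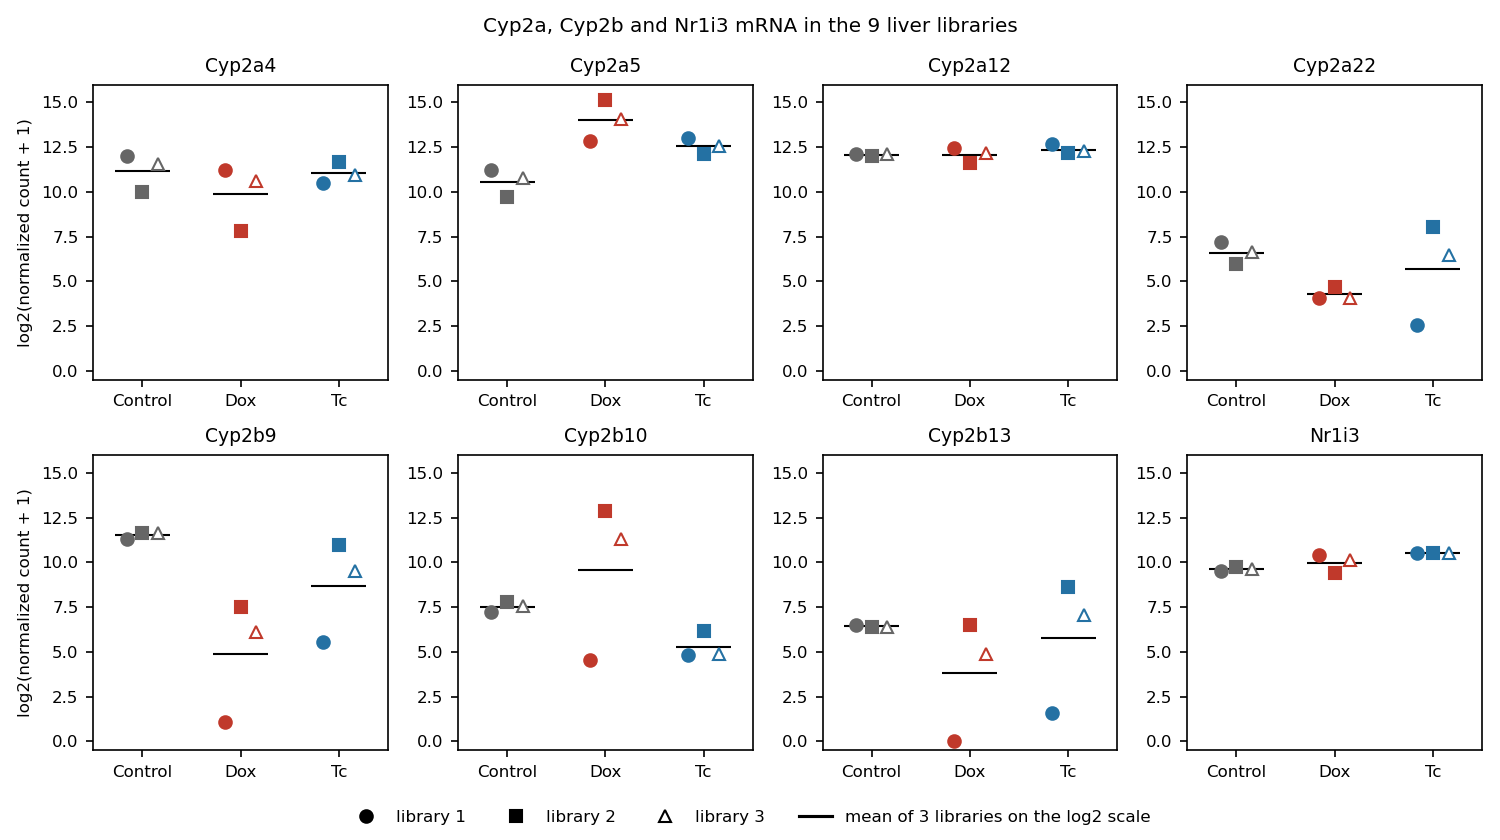
Each member in the 9 libraries as log2(normalized count + 1), by group (Control grey, Dox red, Tc blue), with libraries 1 (circle), 2 (square) and 3 (open triangle) and the mean of the 3 as a line. Cyp2a5 is higher in all Dox and Tc libraries than in Control, Cyp2b10 is at 22.1 normalized counts in Dox 1 and 7464.3 in Dox 2, and Nr1i3 in Tc lies at one level.

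Nr1i3, the CAR gene, was highest and most even in the Tc livers. It stood at 741.0, 855.5 and 804.8 normalized counts in Control 1 to 3, at 1340.4, 672.9 and 1123.5 in Dox, and at 1470.6, 1485.6 and 1481.5 in Tc. Every Tc library lay above every Control and every Dox library, whereas Dox 2 lay below the Controls and the other Dox libraries above them. The means were 800.4 ± 57.4 in Control, 1045.6 ± 340.5 in Dox and 1479.2 ± 7.7 in Tc (SD, 3 libraries). With library 3 a near-mixture, these SDs can be too small, and the evenness in Tc rests on 1470.6 and 1485.6 in Tc 1 and Tc 2. With Tc the difference from Control was 0.89 on the log2 scale (SE 0.23, 95% interval 0.37 to 1.41), an increase of 1.85-fold with a limma adjusted p of 0.201. DESeq2 gave an adjusted p of 0.0199 for it, but the change was under 2-fold and was not called. With Dox the difference was 0.33 (SE 0.23, 95% interval -0.19 to 0.85, limma adjusted p = 0.366). Dox against Tc it was -0.56 (95% interval -1.08 to -0.04, limma adjusted p = 0.212). Without libraries 3 the unadjusted limma p for Tc against Control was 0.0534 and the adjusted p 1.0.

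Cyp2b10, the gene by which CAR activity is usually read, was very unequal between the Dox livers. Its 149.3, 220.3 and 186.9 normalized counts in Control compared with 22.1, 7464.3 and 2572.5 in Dox and 27.3, 70.1 and 28.6 in Tc. Dox 2 was 338 times as high as Dox 1, from 6489 and 21 reads, so that the Dox group held both the lowest and the highest library of all 9. All Tc libraries lay below all Controls. The mean in Dox was 3353.0 ± 3782.0 (SD, 3 libraries), with an SD above the mean. On the log2 scale Dox differed from Control by 2.05 (SE 1.77, 95% interval -1.99 to 6.09, limma adjusted p = 0.468). Without Dox 1 this difference was 4.57 (limma adjusted p = 0.00373) and without Dox 2 it was 0.41 (limma adjusted p = 0.878). DESeq2 gave 4.17 and called the gene higher with all libraries (adjusted p = 0.0151), and gave 4.34 without a call when libraries 3 were left out (adjusted p = 0.416). Tc differed from Control by -2.24 (SE 1.77, 95% interval -6.28 to 1.80, limma adjusted p = 0.696), and Dox from Tc by 4.29 (95% interval 0.25 to 8.33, limma adjusted p = 0.216).

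Dox 2 stood apart in other genes of the same setting. Por, the electron donor of the P450s, was at 26716.9 normalized counts in Dox 2, at 4127.7 in Dox 1, at 12017.0 in Dox 3 and at 4230.6 to 7852.0 in the Control and Tc libraries. Ppargc1a, a coactivator induced by fasting, was at 1463.2 in Dox 2 against 108.5 in Dox 1. Sult1e1, the oestrogen sulfotransferase, was at 2115.4 in Dox 2 against 0 reads in Dox 1, where 0 reads allow up to 3.16 normalized counts (3 reads, counting error only). Hnf4a, a hepatocyte nuclear receptor, was at 20157.9 in Dox 2 and at 9117.6 to 12866.0 in the other libraries. The part of that library's state in the Cyp2b10 and Cyp2a5 levels was not tested. With Dox 2 left out, limma called Cyp2a5 and Cyp2b9 with Dox and Cyp2a5 with Tc, and no member in Dox against Tc. Calls over all 12100 genes rose too, to 1102, 221 and 179 in these comparisons, against 605, 20 and 26 with all libraries.

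Cyp2b9 was the Cyp2b gene of the Control livers and was low with Dox. It was at 2486.5, 3246.8 and 3161.9 normalized counts in Control, at 1.1, 178.3 and 69.5 in Dox, and at 46.9, 2010.7 and 731.0 in Tc. Every Dox and Tc library lay below every Control, and Tc 2 reached close to the Controls. In Dox 1 the gene had 1 read. Dox differed from Control by -6.64 on the log2 scale (SE 1.73, 95% interval -10.58 to -2.69), 99.7-fold lower, with a limma adjusted p of 0.0505, just outside the threshold. The size of the fold varied with the library left out: the difference was -4.71 without Dox 1, which held 1 read (limma adjusted p = 0.0349), and -7.94 without Dox 2 (limma adjusted p = 0.0129). DESeq2 gave -5.17 with all libraries (adjusted p = 0.00537) and -5.00 without libraries 3 (adjusted p = 0.396), where the call was lost. Tc differed from Control by -2.83 (SE 1.73, 95% interval -6.78 to 1.11, limma adjusted p = 0.589), and Dox from Tc by -3.80 (95% interval -7.75 to 0.14, limma adjusted p = 0.243).

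Cyp2b13, its near-copy, was low in the Controls and spread widely with both drugs. Its values were 91.0, 83.2 and 83.9 normalized counts in Control, 0.0, 90.9 and 28.2 in Dox, and 2.0, 393.9 and 131.4 in Tc. The lowest libraries were Dox 1 with 0 reads and Tc 1 with 2 reads, and the highest was Tc 2 with 438, so that both drug groups overlapped Control. The differences were -2.65 for Dox (SE 1.98, 95% interval -7.15 to 1.86, limma adjusted p = 0.401), -0.70 for Tc (95% interval -5.21 to 3.81, limma adjusted p = 0.938) and -1.95 for Dox against Tc (95% interval -6.46 to 2.56, limma adjusted p = 0.551). In Tc against Control the DESeq2 fold change was in the other direction, 1.03 on the log2 scale.

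Lists of other sex-biased liver genes varied between the same libraries. Of 18 genes higher in female liver, 6 were lowered with Dox and 0 raised, beside 5.00% of all genes called in either direction. Their median log2 difference was -3.54 beside 0.00 over all genes. With Tc 0 were called, beside 0.165% of all genes, and the median was -1.71. A1bg, a plasma glycoprotein gene, was at 136.2 to 1345.4 in Control, at 1.1 to 2.3 in Dox, at 3.9 in Tc 1 and at 1141.2 in Tc 2. Cyp3a41a, a P450, was at 687.4 to 950.6 in Control, at no more than 0.9 in Dox, at 0 reads in Tc 1 and at 767.1 in Tc 2, although reads of near-identical Cyp3a genes can be lost or split between copies. The 4 others lowered were Cyp3a44, Abcd2, Prlr and Cyp2c69, with log2 differences of -8.80, -2.74, -2.27 and -4.80. Without libraries 3, DESeq2 called 5 of these 6, all but Abcd2, beside 1.20% of all genes. Summed over the list, the levels ran from 11509.0 to 24936.7 normalized counts in Control, from 1561.6 to 13127.2 in Dox and from 3387.5 to 17585.0 in Tc.

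Genes higher in male liver divided the libraries in another way. Of 18 tested of a list of 20, limma called 0 in any comparison. DESeq2 raised 7 with Dox, beside 9.40% of all genes called in either direction, and called 0 in any comparison without libraries 3. Summed over the list, the male-biased genes stood at 10403.2 to 14220.5 normalized counts in Control. The sums were 104451.7, 5201.7 and 65960.0 in Dox 1 to 3, and 63150.9, 10820.8 and 40004.5 in Tc 1 to 3. Dox 1 and Tc 1, the libraries with the least Cyp2b9 and Cyp2b13 in their groups, had the most of these mRNAs, and Dox 2 had the least. In Tc, Cyp2a4 was also lowest in library 1 (1450.1). In Dox it was highest in library 1 (2425.0) and lowest in library 2 (227.8), the reverse of Cyp2b9 and Cyp2b13. The part of the sex-biased state of each liver in the values of Cyp2b9, Cyp2b13 and Cyp2a4 was not tested.

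**Figure D3:**
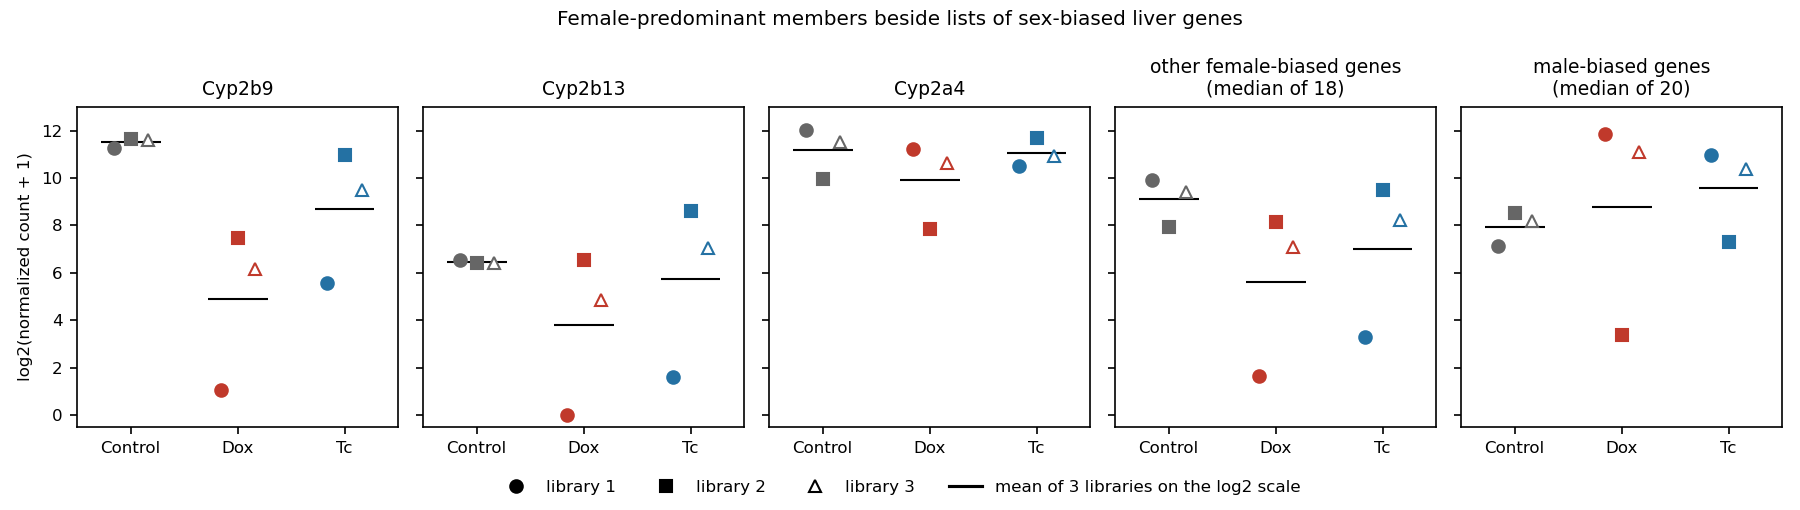
Cyp2b9, Cyp2b13 and Cyp2a4 beside the medians of the other female-biased genes (18) and the male-biased genes, as log2(normalized count + 1) by group. The male-biased median covers the 18 genes tested, although the panel title counts all 20 listed. Libraries 1, 2 and 3 are shown as circle, square and open triangle and the group mean as a line. Dox 1 and Tc 1 are low for Cyp2b9, Cyp2b13 and the female-biased median (1.64 and 3.28) and high for the male-biased median (11.88 and 10.99). Cyp2a4 is lowest of the Tc libraries in Tc 1 but highest of the Dox libraries in Dox 1.

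Cyp2a5, the coumarin hydroxylase, rose with Dox. It was at 2384.9, 828.1 and 1734.2 normalized counts in Control, at 7440.4, 36492.2 and 17022.9 in Dox, and at 8388.2, 4526.0 and 6111.1 in Tc. All 6 drug libraries lay above all Controls, Dox 2 far above the rest, and Dox 1 within the range of Tc. Dox differed from Control by 3.47 on the log2 scale (SE 0.59, 95% interval 2.13 to 4.80, limma adjusted p = 0.0150). The adjusted p was 1.29e-08 with DESeq2, 0.00240 with DESeq2 without libraries 3, and 0.559 with limma without libraries 3, where the unadjusted p was 0.00860. Tc differed by 2.03 (SE 0.59, 95% interval 0.69 to 3.36), or 4.08-fold, with a limma adjusted p of 0.262 and a DESeq2 adjusted p of 0.0236. Between the drugs the difference was 1.44 (95% interval 0.11 to 2.77, limma adjusted p = 0.211, DESeq2 adjusted p = 0.0358).

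Cyp2a4, whose coding sequence and promoter are almost those of Cyp2a5, did not pass any test of the 3 comparisons with limma or DESeq2. Its values were 4168.5, 1009.4 and 2963.6 in Control, 2425.0, 227.8 and 1590.6 in Dox, and 1450.1, 3258.0 and 1978.4 in Tc. The groups overlapped, and Dox 2, the highest library for Cyp2a5, was the lowest for Cyp2a4. The differences were -1.27 with Dox (SE 0.87, 95% interval -3.24 to 0.70, limma adjusted p = 0.356), -0.14 with Tc (95% interval -2.11 to 1.83, limma adjusted p = 0.974) and -1.14 between Dox and Tc (95% interval -3.11 to 0.84, limma adjusted p = 0.434). In Control 1 and 2 both genes of the pair were higher in library 1, Cyp2a4 at 4.13 and Cyp2a5 at 2.88 times the level of library 2. In Dox, Cyp2a4 was 10.6 times as high in library 1 as in library 2, and Cyp2a5 4.90 times as high in library 2 as in library 1.

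Cyp2a12, the bile acid hydroxylase, was the most even of the P450 members. It stood at 4497.7, 4077.5 and 4456.2 normalized counts in Control, 5646.1, 3151.8 and 4577.5 in Dox, and 6484.0, 4537.7 and 5029.7 in Tc. Dox libraries lay on both sides of Control, and all Tc libraries lay above Control, by little. The differences were 0.00 with Dox (SE 0.23, 95% interval -0.53 to 0.53, limma adjusted p = 0.997), 0.29 with Tc (95% interval -0.24 to 0.81, limma adjusted p = 0.707) and -0.29 between Dox and Tc (95% interval -0.81 to 0.24, limma adjusted p = 0.457). With libraries 3 counted as independent, the 3 intervals lay inside a 2-fold change in either direction.

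Cyp2a22, its near-copy, was a low gene. It was at 144.0, 62.8 and 100.4 in Control, at 15.8, 25.3 and 15.8 in Dox, and at 4.9, 261.7 and 88.4 in Tc. All Dox libraries lay below all Controls, while the Tc group spanned 5 to 291 reads and held both the lowest and the highest library. Dox differed by -2.33 (SE 1.15, 95% interval -4.95 to 0.30, limma adjusted p = 0.216), which DESeq2 called with all libraries (adjusted p = 0.0432) and not without libraries 3 (adjusted p = 0.546). The difference with Tc was -0.92 (95% interval -3.55 to 1.70, limma adjusted p = 0.826) and turned to 0.21 with DESeq2. Between the drugs it was -1.41 (95% interval -4.03 to 1.22, limma adjusted p = 0.464, DESeq2 adjusted p = 0.0441).

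**Figure D4:**
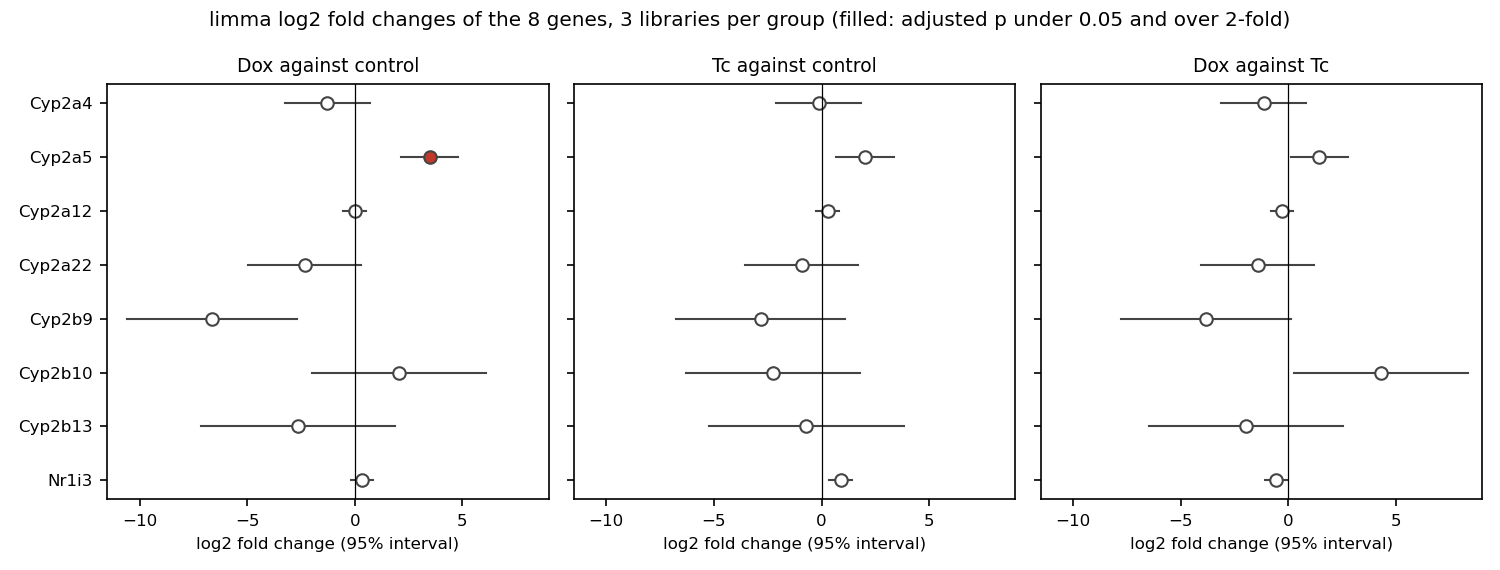
log2 fold change of each member with its 95% interval from limma in Dox against Control, Tc against Control and Dox against Tc. The filled point marks the called difference, Cyp2a5 with Dox (3.47); the open points whose interval leaves out 0 are Cyp2b9 with Dox, Cyp2a5 and Nr1i3 with Tc, and Cyp2a5, Cyp2b10 and Nr1i3 in Dox against Tc.

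As a matched pair of compounds, 1 pair at 1 dose and 1 time, Dox and Tc gave no member an adjusted limma p under the threshold. The intervals of the difference remain wide, from a width of about 1 log2 unit for Nr1i3 and Cyp2a12 to over 8 for Cyp2b10 and Cyp2b13, so the test does not show that the drugs act alike on these genes. Deviations from the group mean, over all genes, were correlated between Dox and Tc libraries of one number (r = 0.29, 0.32 and 0.18 for 1, 2 and 3). These 3 values are not independent, because library 3 is nearly a mixture of libraries 1 and 2. The labels do not say that libraries of one number belong together. A replicate block left the count of members called in Dox against Tc at 0.

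Per length of transcript, the order of the members changed with treatment. In Control the mean normalized counts per kb were 2584.1 for Cyp2a12, 1580.5 for Cyp2b9, 1561.5 for Cyp2a4, 819.2 for Cyp2a5, 566.1 for Nr1i3, 96.8 for Cyp2b10, 57.0 for Cyp2a22 and 45.9 for Cyp2b13. Over the 3 libraries the range of Cyp2a12 lay above that of the next gene, and that of Nr1i3 above that of Cyp2b10, whereas the ranges of all other neighbours in that order overlapped. In Dox the order began with Cyp2a5 at 10093.6, Cyp2a12 at 2652.3 and Cyp2b10 at 1750.0, followed by Cyp2a4, Nr1i3, Cyp2b9, Cyp2b13 and Cyp2a22 at 813.9, 739.5, 44.2, 21.2 and 10.6. Cyp2a5 did not overlap Cyp2a12 and Nr1i3 did not overlap Cyp2b9 in Dox, whereas Cyp2b10, which ran from 11.5 to 3895.8, and all other neighbours in that order overlapped. In Tc, Cyp2a12 at 3182.9 and Cyp2a5 at 3150.4 were followed by Cyp2a4 at 1282.4, Nr1i3 at 1046.1, Cyp2b9 at 495.5, Cyp2b13 at 93.7, Cyp2a22 at 65.9 and Cyp2b10 at 21.9. There Cyp2a5 did not overlap Cyp2a4, and all other neighbours in the order overlapped. Counted per kb of unique sequence, Cyp2a4 passed Cyp2b9 in Control (1968.0 and 1712.9) and Cyp2a5 passed Cyp2a12 in Tc (4115.4 and 3731.2), so those orders rest on the reads lost to the near-copies.

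Within the Cyp2b subfamily, the make-up per kb was similar in Dox 1 and Dox 2 although their sums were far apart. Cyp2b9 made up 91.3% to 92.2% of Cyp2b mRNA per kb in Control, with 5.34% to 6.08% Cyp2b10 and 2.35% to 3.34% Cyp2b13. In Dox 1, 2 and 3 Cyp2b10 made up 95.4%, 96.4% and 96.3%. In Dox 1 this rested on 21 of 22 Cyp2b reads, 95.5% of them with an exact 95% binomial interval of 77.2% to 99.9%, and in Tc 1 on 28 of 78, 35.9% with an interval of 25.3% to 47.6%. The Cyp2b sums behind these shares were 23.2, 7733.5 and 2670.1 normalized counts in Dox, against 2726.8, 3550.3 and 3432.7 in Control and 76.2, 2474.8 and 891.1 in Tc. In Dox 1 the high share of Cyp2b10 thus came with a Cyp2b10 level below Control. With library 3 a near-mixture and few Cyp2b reads in Dox 1, the shares in Dox 3 largely repeated those of Dox 2. In Tc 1 the shares were 62.0% Cyp2b9 and 35.4% Cyp2b10, while Tc 2 and Tc 3 held 81.3% and 82.1% Cyp2b9 with 15.9% and 14.8% Cyp2b13. For the same reason the shares in Tc 3 largely repeated those of Tc 2. Cyp2a5 made up 11.9% to 18.7% of Cyp2a mRNA per kb in Control, 43.7%, 90.0% and 69.9% in Dox, and 47.0%, 32.3% and 42.1% in Tc.

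**Figure D5:**
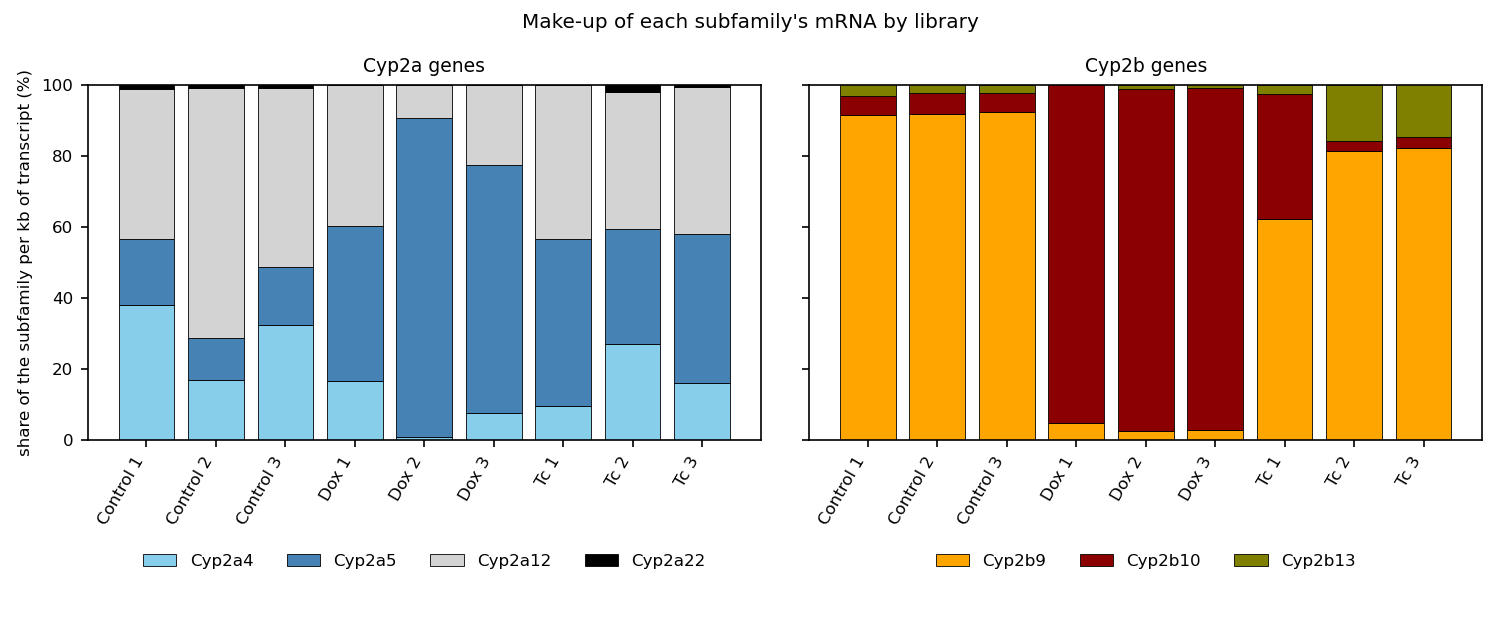
Share of each Cyp2a gene (left) and Cyp2b gene (right) in its subfamily's normalized counts per kb of transcript, in percent, as stacked bars for the 9 libraries. Cyp2b9 fills over 91% of the Cyp2b bars in Control, and Cyp2b10 over 95% of those in Dox. Library 3 of each group is nearly a mixture of libraries 1 and 2.

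The other Cyp2 genes of the chromosome 7 cluster were mostly silent or low. Cyp2b19 and Cyp2t4 had 0 reads in all 9 libraries, which allows up to 3.81 normalized counts in the library where 1 read weighs most, Cyp2b23 reached at most 2.3 and Cyp2s1 1.8 to 15.0. Cyp2g1, an olfactory P450, was at 16.8 to 43.2 in Control, 3.5 to 13.7 in Dox and 32.8 to 54.9 in Tc (Dox against Control -1.85 on the log2 scale, limma adjusted p = 0.0545). Cyp2f2, a periportal P450, was at 1195.1, 3242.4 and 2425.8 in Control, 21891.5, 138.0 and 13465.1 in Dox, and 18478.5, 2319.2 and 10560.6 in Tc. It was thus high in Dox 1 and Tc 1 and lowest in Dox 2, the reverse of Cyp2b10 in Dox, and neither of the 2 genes tested was called by limma in any comparison. DESeq2 called Cyp2g1 lower in Dox than in Control (adjusted p = 0.00682) and than in Tc (adjusted p = 0.00066), and called neither gene without libraries 3.

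Of 24 partners and coregulators of CAR, limma called 2 with Dox, beside 5.00% of all genes. There 1 rose, Ppargc1b, a coactivator (1.48 on the log2 scale, limma adjusted p = 0.0272), and 1 fell, Rxrg, the least abundant retinoid X receptor (-1.16, limma adjusted p = 0.0150). Their median difference was 0.38, beside 0.00 over all genes. With Tc 0 were called with a median of 0.10, and in Dox against Tc limma called 0 and DESeq2 2 as higher in Dox, 0 without libraries 3. Rxra, the main hepatic partner of CAR, was at 5408.4 to 5622.2 in Control, 5449.0 to 6325.3 in Dox and 6102.4 to 6886.8 in Tc. Without libraries 3, DESeq2 called 0 of the 24 in every comparison.

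Among known CAR target genes outside the 2 subfamilies, several rose with Dox. Of 33 tested of a list of 35, 6 rose and 0 fell, beside 5.00% of all genes called in either direction, and the median difference was 0.85. Those 6 were the P450 genes Cyp2c37 and Cyp2c55, the epoxide hydrolase Ephx1 and the glutathione transferases Gsta2, Gstm1 and Gstm3. Gsta2 went from 10.6 to 12.7 normalized counts in Control to 143.8 to 295.9 in Dox (4.14 on the log2 scale, SE 0.41, limma adjusted p = 0.00503). Gstm3 was at 57.2 to 62.8 in Control and 422.2 to 593.6 in Dox (3.04, limma adjusted p = 0.0189). Neither gene overlapped between these groups, and both were higher in Dox 1 than in any Control although Cyp2b10 was lower there. DESeq2 without libraries 3 called 4 of the 6, Cyp2c55, Gsta2, Gstm1 and Gstm3. With Tc 0 of the 33 were called by limma and 7 by DESeq2, with a median of 0.61, and in Dox against Tc 0 were called by limma, while DESeq2 called 4 higher and 1 lower in Dox, and 0 without libraries 3. These lists were drawn up with earlier results of the same libraries known and are no independent evidence of a direction. Cyp2c29, a further CAR target, was at 3269.8 to 4916.8 in Control, 8400.7 to 17631.2 in Dox, and 12941.7, 3745.4 and 8312.7 in Tc 1 to 3.

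Of 14 factors reported upstream of Cyp2a5, Cyp2b10 or Nr1i3, limma called 0 in each comparison, with medians of 0.22 with Dox and 0.14 with Tc, and DESeq2 called 1 with Dox, Ppargc1a (adjusted p = 0.00757), 0 with Tc, and 2 as higher in Dox than in Tc, Ppargc1a (adjusted p = 0.0132) and the clock repressor Nr1d1 (adjusted p = 5.69e-05). Without libraries 3, DESeq2 called 0 of the 14 in each comparison. Nfe2l2, the factor of the antioxidant response, was at 394.6 to 518.7 normalized counts in Control, 523.4 to 811.9 in Dox and 379.0 to 507.2 in Tc. Of the 5 electron donors of P450 enzymes, none was called in any comparison by limma or DESeq2. Their median differences were 0.19 with Dox and 0.39 with Tc.

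Some markers of other cells were called with Dox, to be read beside 5.00% of all genes. Of 10 Kupffer cell and macrophage markers 2 fell, Clec4f and Adgre1 (median of the list -1.51), and of 10 sinusoidal endothelial markers 3 fell, Stab2, Stab1 and Cdh5 (median -0.70). Summed, the macrophage markers ran from 8223.7 to 15188.4 in Control, 2289.2 to 8422.5 in Dox and 3988.1 to 7710.3 in Tc, and the endothelial markers from 9127.6 to 9556.9, 4739.5 to 6232.3 and 7233.0 to 8266.9. Of 8 neutrophil and erythroid markers tested of 10, 2 fell with Dox, the globin genes Hba-a1 and Hbb-bt, and of 3 cholangiocyte markers tested of 6, 1 rose, Sox9. No stellate cell marker of 10 was called in any comparison. Among hepatocyte markers 1 of 7 fell with Dox, fibrinogen Fgb, and of the zonal markers Cdh1 (periportal) rose with both drugs among 10, and Rhbg (pericentral) was lower in Dox than in Tc among 12. With Tc, Cdh1 was the one gene limma called among all these marker lists. The neutrophil and erythroid sums ran from 1351.7 to 5616.9 in Control, 812.1 to 2350.3 in Dox and 1274.3 to 2014.5 in Tc, and the cholangiocyte sums from 206.0 to 244.5, 148.4 to 374.9 and 258.8 to 338.1. No marker was at 0 in all 9 libraries. Without libraries 3, DESeq2 called Clec4f, Stab2, Stab1, Hbb-bt and Cdh1 of these with Dox. The part of these shifts in the values of the members was not tested.

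For 3 members the genes with the most similar profile over the 9 libraries were sought among 9371 genes with a mean of at least 50. For Nr1i3 they included Tlr5 and Zbtb20, with Pearson r of 0.992 and 0.978 over 9 libraries and 0.995 and 0.986 over the 6 without libraries 3. For Cyp2b10 they were Klf6, Mpzl1 and Sult1e1 (0.985, 0.983 and 0.981, and 0.989, 0.990 and 0.987 over 6). For Cyp2a5 they were Rc3h1, Acmsd and Larp4 (0.989, 0.988 and 0.983, and 0.990, 0.991 and 0.989 over 6). These are descriptions: the libraries share groups, depth and the mixing of libraries 3, and the genes were the extremes of a long list. Klf6, a zinc finger factor, was at 1028.4 normalized counts in Dox 2 and at 52.6 to 430.2 elsewhere. Tlr5, the flagellin receptor, followed Nr1i3 with 55.0 to 77.0 in Control, 194.8, 49.5 and 141.6 in Dox, and 200.4 to 252.9 in Tc. Acmsd, an enzyme of tryptophan breakdown, was at 28.3 to 52.9 in Control, 186.4 to 809.8 in Dox and 89.0 to 178.7 in Tc, above Control in all 6 drug libraries, as Cyp2a5 was.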

How the data were processed

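Total RNA of mouse liver was sequenced in 9 libraries. The authors trimmed reads with cutadapt, mapped them to mm10 with STAR, counted unique reads per gene with HTSeq 2.0.5 and normalized with DESeq2 1.42.0. The library kit keeps strand, and the strand setting of the counting is not given in the sources used here. The deposited values are a signal, reads divided by a size factor per library. In all, 100% of values were whole multiples of 1 read (tolerance 0.01 read), so reads were recovered. Symbols were found for 32158 of 32285 identifiers.

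Here log2(normalized count + 1) was tested with limma 3.58.1 in R 4.3.3 (trend, 1 model of 3 groups, Benjamini-Hochberg over 12100 genes averaging 10 or more). DESeq2 1.42.0 and edgeR 4.0.16 were run on the recovered reads and called 1137 and 668 genes with Dox, 189 and 21 with Tc, and 603 and 0 in Dox against Tc; limma called 605, 20 and 26. The scripts were tested on simulated data. The members, lists and tests were chosen with earlier results of these data known. The text names all members, up to 6 called genes per list and comparison, all sex-chromosome and neighbouring Cyp2 genes, and the 3 most similar genes of 3 members, of which 1 is not reported here; the other genes named with values were chosen after their values were seen. The replicate numbers were taken from the labels, which do not say that libraries of one number belong together. Whether Dox and Tc libraries were paired is thus not known. Correlations of deviations between Control and either drug ran from -0.08 to 0.06. RefSeq promoters, and GENCODE M21 transcripts in place of the authors' vM23, gave sequences and lengths. Alternatives covered pseudocount, filter, scaling, test, samples, weights, block, thresholds and each library left out.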

Additional observations from a re-analysis of the deposited data

How the results depend on the processing

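In 526 of 584 values of a member under an alternative, the direction and the side of the threshold were those given above; 34 crossed into a call, 4 lost one and 20 changed sign. The members called in Dox against Control, Tc against Control and Dox against Tc (1, 0 and 0) became 4, 1 and 3 with DESeq2, 2, 2 and 0 with only the groups compared in the fit, 4, 3 and 4 with array weights, whose estimation did not converge, and 2, 1 and 2 at an unadjusted p. A pseudocount of 8 gave 2 with Dox (Cyp2a5 and Cyp2b9), and limma without libraries 3 gave 0. Each library left out in turn gave 0 to 3, 0 to 1 and 0 to 2. For the differences below whose sign turned, the log2 ranges over all alternatives were -0.19 to 0.23 for Cyp2a12 with Dox. With Tc they were -0.74 to 0.28 for Cyp2a4, -2.09 to 0.65 for Cyp2a22 and -2.14 to 1.39 for Cyp2b13. Cyp2a5 with Dox lost its call without Control 2, Control 3 or Dox 3. Without Dox 1, 3 members were called with Dox (beside 1500 of all genes) and 2 in Dox against Tc (beside 1362). Without Dox 2, 2 were called with Dox (beside 1102) and 1 with Tc (beside 221). Without Tc 1, 3 were called with Dox (beside 530). With the replicate block over 9 libraries 2 members were called with Dox (Cyp2a5 and Cyp2b9) and 0 in each of the other comparisons. Over all genes that fit called 557 with Dox, 2 with Tc and 2 in Dox against Tc. A block with only Dox and Tc, chosen after seeing the data, gave 0. Blocking these 2 groups by replicate number thus changed no call of a member between them.

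The signs that turned, on the log2 scale, were those of differences near 0 or of widely spread genes, and the cause was not tested. For Cyp2a12 with Dox they were 0.17 at the same total per library, where the median of all genes shifted by 0.17 too, 0.03 with DESeq2 with or without libraries 3, 0.02 with edgeR, 0.06 with array weights, 0.02 without Control 1 or Control 3, and 0.23 without Dox 2. For Cyp2a22 with Tc they were 0.21 with DESeq2 or edgeR, 0.36 with DESeq2 without libraries 3, and 0.65 without Tc 1. For Cyp2b13 with Tc they were 1.03 with DESeq2 or edgeR, 1.18 with DESeq2 without libraries 3, and 1.39 without Tc 1. For Cyp2a4 with Tc they were 0.08 with limma without libraries 3, 0.28 without Control 1, 0.04 without Control 3 and 0.13 without Tc 1. Over all genes with Dox, 245 were raised and 326 lowered at the same total per library, against 138 and 467. Counts over all genes moved by more than 1.5 times in several settings: with Dox 1137 (DESeq2), 333 (only the groups compared), 1555 (array weights), 369 (mean of at least 50) and 0 or 145 without libraries 3 (limma or DESeq2), against 605. Each library left out in turn gave 33 (without Control 3) to 1500 (without Dox 1) with Dox, with 87 without Dox 3, 1 to 221 (without Dox 2) with Tc, against 20, and 0 to 1362 (without Dox 1) in Dox against Tc, against 26. Depth limits Cyp2b9, Cyp2b13 and Cyp2a22 in Dox 1 and Tc 1, where reads were few.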
